A study of Homo sapiens with 18 samples.

Results

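SOX4, BCAS1, IRX3 and SSTR2 are 4 genes whose transcript level changed with CDK4/6 inhibitors in a way that depended on the breast cancer cell line. They are 4 of the 60656 genes of the count table and of the 25113 genes with at least 1 count. The members were selected on the measured values described here, as genes whose change with drug differed most clearly between the lines, so their changes against DMSO and the contrast of those changes between lines are given as a description without a test. Ranked by the evidence for a line difference among 11987 genes, they stood between rank 10 and rank 26 for abemaciclib and between rank 3 and rank 18 for palbociclib. The difference between the drugs was not itself a criterion of the choice and is tested below within each line. It uses treated libraries that entered the choice, so its p-values are not independent of how the genes were chosen. The contrast of that difference between the lines is the arithmetic difference of values used in the choice, so it is described without a test.

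The series comprised 18 libraries of 2 established oestrogen receptor-positive lines, CAMA-1 and ZR-75-1, each labelled as the wild-type parental line and kept in RPMI-1640 with serum. Each line received DMSO (the vehicle), abemaciclib at 500 nM or palbociclib at 500 nM for 5 days, with 3 replicates in each of the 6 groups. Messenger RNA was read from its 3′ end, so that a transcript yields about one counted fragment whatever its length. The labels give no batch. Each line stands for itself alone, so a difference between the lines is one between 2 cultures of different origin, and the cells grew without stroma or immune cells.

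Abemaciclib and palbociclib bind the kinases CDK4 and CDK6, which with cyclin D phosphorylate the retinoblastoma protein. Cells under these drugs retain active retinoblastoma protein, transcribe fewer E2F targets and stop dividing. In structure both carry an aminopyridine joined to a pyrimidine-containing core, which in palbociclib is a fused pyridopyrimidinone and in abemaciclib a pyrimidine bearing a benzimidazole. SOX4 encodes a high-mobility-group transcription factor of the SOX family that is induced by TGF-β in epithelial tumours. IRX3 is a homeobox transcription factor of the Iroquois family, whose genes lie in clusters. SSTR2 is a receptor for the peptide hormone somatostatin that signals through inhibitory G proteins, lowers cyclic AMP and is the target of somatostatin analogues in neuroendocrine tumours. BCAS1, named for its amplification in breast carcinoma, is best known as a protein of myelin-forming cells in the brain.

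In the human annotation (GENCODE v44, GRCh38), SOX4 is a single-exon gene on chromosome 6 from 21593751 to 21598619 on the plus strand. BCAS1 spans 53936777 to 54070594 on the minus strand of chromosome 20, and its canonical transcript has 13 exons. IRX3 lies at 54283304 to 54286787 on the minus strand of chromosome 16 with 4 exons in its canonical transcript. SSTR2 occupies 73165010 to 73176633 on the plus strand of chromosome 17 and has 2 exons. Annotated genes that overlap these 4 had 0 or 1 count in every library.

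The 250 bases before the transcription start are shown for SOX4 and SSTR2, the members found in the promoter table used, because these stretches differ in composition and in the short motifs they hold. They were taken from RefSeq on GRCh38.p14, on the strand of the gene, at chr6:21593501-21593750 and chr17:73164760-73165009. Capitals mark CCAAT on either strand in SOX4, and GGGCGG (a GC box) and TGACGT (the core of a cyclic AMP response element) in SSTR2.
SOX4: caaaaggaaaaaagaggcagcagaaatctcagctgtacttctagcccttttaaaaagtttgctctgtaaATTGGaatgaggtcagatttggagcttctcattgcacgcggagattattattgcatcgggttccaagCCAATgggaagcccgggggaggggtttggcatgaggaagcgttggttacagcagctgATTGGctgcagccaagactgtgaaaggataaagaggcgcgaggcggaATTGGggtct
SSTR2: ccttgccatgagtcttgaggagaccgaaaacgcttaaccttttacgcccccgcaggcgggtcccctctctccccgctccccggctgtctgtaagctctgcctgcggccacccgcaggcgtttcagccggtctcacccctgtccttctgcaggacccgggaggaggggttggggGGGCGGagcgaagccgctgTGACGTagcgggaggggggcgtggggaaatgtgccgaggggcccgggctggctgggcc
The SOX4 stretch had a GC content of 48.8% and held CCAAT 4 times, a motif found in 34.6% of 35116 promoters when 250 bases before to 50 bases after the start were searched on both strands. SSTR2 had a GC content of 69.2% against a median of 58.0% over those promoters, with 1 GGGCGG, present in 45.0% of them, and 1 TGACGT, present in 7.98%. These 3 motifs were added after the sequences had been read. None of the 10 motifs chosen with the gene lists occurred in either promoter: the palindromic oestrogen response element (0.0570% of all promoters), the E2F sites TTTGGCGC (0.652%), TTTCCCGC (1.63%), TTTGCCGC (0.607%) and TTTCGCGC (0.515%), TTTGAA (15.2%), TGACTCA (4.95%), TGTTTAC (3.42%), AACAAAG (5.20%) and TATAAA (11.5%). That says only that these letters are not in the windows.

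Libraries held 2308442 to 4146549 counts, and all 4 genes passed the filter on low counts in each fit. The smallest count of any of them in any library was 137, for BCAS1 in CAMA-1 with DMSO. All 7 luminal epithelial markers (ESR1, GATA3, FOXA1, KRT8, KRT18, KRT19 and EPCAM) were detected in every group, with a summed level of 4648 to 4941 CPM (counts scaled to a common library total) in CAMA-1 with DMSO, 6291 to 6679 CPM in CAMA-1 with either drug and 4905 to 6525 CPM across ZR-75-1. Basal, leukocyte and endothelial markers summed to at most 1.34 CPM in any library, and 1 marker of each of these lists was at 0 throughout. The 3 stromal markers summed to 14.4 to 33.9 CPM. MKI67, CCNA2, TOP2A and RRM2, genes of dividing cells, fell with both drugs in both lines. The share of mitochondrially encoded transcripts moved with treatment in CAMA-1, from 14.8% to 16.6% with DMSO to 22.9% to 26.1% with drug, and leaving these genes out changed no call of the 4 genes. In bulk RNA, fewer cells expressing a gene and less RNA per cell cannot be told apart.

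SOX4 was about 3 times as high with either drug in CAMA-1, and in ZR-75-1 it was slightly higher with abemaciclib and slightly lower with palbociclib. Its level in CAMA-1 was 753, 721 and 781 CPM in the DMSO libraries, and the abemaciclib libraries had 2468, 2475 and 2592 CPM, and those with palbociclib 2341, 2468 and 2198 CPM. In ZR-75-1 the same gene stood at 497, 532 and 538 CPM with DMSO, at 659, 637 and 639 CPM with abemaciclib, and at 496, 462 and 395 CPM with palbociclib. Every drug-treated CAMA-1 library thus lay above every other library, and the only neighbouring groups in the order of levels that overlapped were abemaciclib and palbociclib in CAMA-1. The DMSO and palbociclib groups of ZR-75-1 nearly met, at 497 and 496 CPM. Relative to DMSO, the level in CAMA-1 was 3.27-fold with abemaciclib (log2 1.71, SE 0.058) and 3.04-fold with palbociclib (log2 1.60, SE 0.058). The ZR-75-1 values were 1.23-fold (log2 0.30, SE 0.071) and 0.861-fold (log2 -0.22, SE 0.072). As background, among all genes of CAMA-1 20.3% passed as higher and 20.1% as lower under abemaciclib and 18.4% and 18.7% under palbociclib, and among all genes of ZR-75-1 17.9% and 18.3% under abemaciclib and 14.5% and 13.4% under palbociclib, at an adjusted p under 0.05 by the quasi-likelihood test of edgeR. Nothing is read from these shares about the 4 genes, which were chosen by the same contrasts, and the counts in the gene lists below stand beside the same shares.

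**Figure D1:**
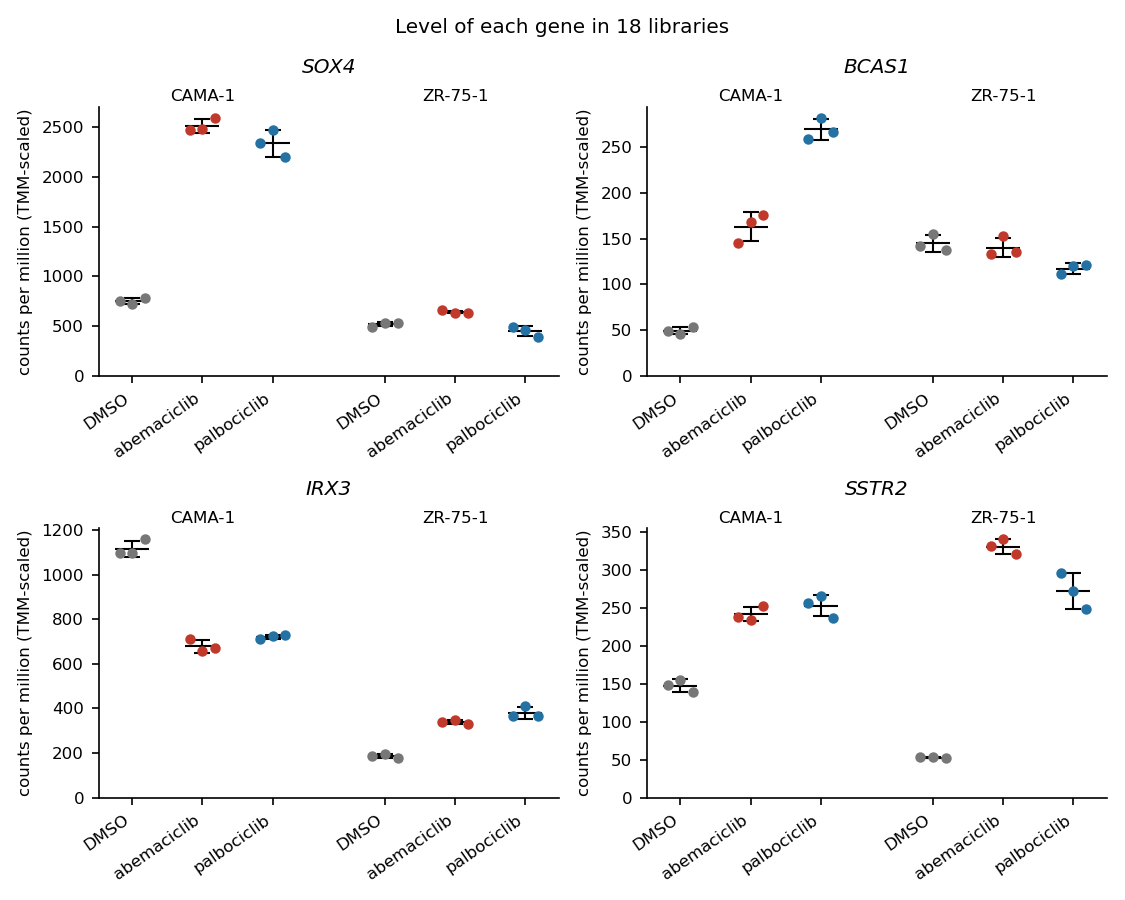
Level of SOX4, BCAS1, IRX3 and SSTR2 in CPM (vertical axes, from 0) in 18 libraries, grouped by line and treatment. Points are libraries, and the horizontal bars with whiskers give the mean and SD of 3. SOX4 lay between 2198 and 2592 CPM in drug-treated CAMA-1 and at or below 781 CPM elsewhere, and SSTR2 was lowest in ZR-75-1 with DMSO at 51.8 to 53.1 CPM.

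BCAS1 began low in CAMA-1 and, with palbociclib, ended above its level in ZR-75-1. With DMSO, CAMA-1 libraries had 49.2, 45.9 and 53.8 CPM. Those with abemaciclib had 145, 168 and 176 CPM and those with palbociclib 259, 282 and 266 CPM, so the 3 CAMA-1 groups did not overlap one another. ZR-75-1 libraries held 141, 155 and 138 CPM with DMSO, 133, 152 and 135 CPM with abemaciclib, and 111, 120 and 121 CPM with palbociclib. The DMSO mean in ZR-75-1 was 2.92 times that in CAMA-1, while the palbociclib mean in CAMA-1 was 2.29 times that in ZR-75-1, so the order of the lines turned. Abemaciclib-treated CAMA-1 overlapped ZR-75-1 with DMSO and ZR-75-1 with abemaciclib, and those ZR-75-1 groups overlapped each other. Relative to DMSO, BCAS1 was at 3.19-fold with abemaciclib (log2 1.67, SE 0.097) and 5.27-fold with palbociclib (log2 2.40, SE 0.094) in CAMA-1, compared with 0.963-fold (log2 -0.05, SE 0.090) and 0.807-fold (log2 -0.31, SE 0.090) in ZR-75-1.

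IRX3 was lower with drug in CAMA-1 and higher with drug in ZR-75-1. CAMA-1 libraries with DMSO had 1096, 1096 and 1159 CPM, and those with abemaciclib had 711, 656 and 670 CPM and with palbociclib 712, 723 and 730 CPM. ZR-75-1 started from 187, 197 and 178 CPM with DMSO and reached 341, 347 and 331 CPM with abemaciclib and 366, 411 and 365 CPM with palbociclib. No 2 groups overlapped, although the palbociclib and abemaciclib groups of CAMA-1 were separated by less than 1 CPM at their edges. The level in CAMA-1 was 0.595-fold of DMSO with abemaciclib (log2 -0.75, SE 0.059) and 0.632-fold with palbociclib (log2 -0.66, SE 0.059). ZR-75-1 showed 1.80-fold (log2 0.85, SE 0.076) and 2.03-fold (log2 1.02, SE 0.075). The lines came closer under treatment, since the CAMA-1 mean was 5.97 times the ZR-75-1 mean with DMSO, 2.00 times with abemaciclib and 1.90 times with palbociclib.

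SSTR2 was higher with drug in both lines, and more so in ZR-75-1. CAMA-1 had 149, 155 and 139 CPM with DMSO, 238, 234 and 252 CPM with abemaciclib, and 257, 265 and 237 CPM with palbociclib. ZR-75-1 had 53.1, 53.1 and 51.8 CPM with DMSO, 331, 340 and 321 CPM with abemaciclib, and 295, 272 and 249 CPM with palbociclib. The order of the lines turned here too, because CAMA-1 exceeded ZR-75-1 by 2.80 times with DMSO while the highest 3 libraries of all were ZR-75-1 with abemaciclib. Palbociclib-treated ZR-75-1 overlapped palbociclib-treated CAMA-1, which overlapped abemaciclib-treated CAMA-1. Relative to DMSO, SSTR2 stood at 1.61-fold with abemaciclib (log2 0.68, SE 0.079) and 1.68-fold with palbociclib (log2 0.75, SE 0.078) in CAMA-1, and at 6.24-fold (log2 2.64, SE 0.090) and 5.15-fold (log2 2.36, SE 0.090) in ZR-75-1.

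**Figure D2:**
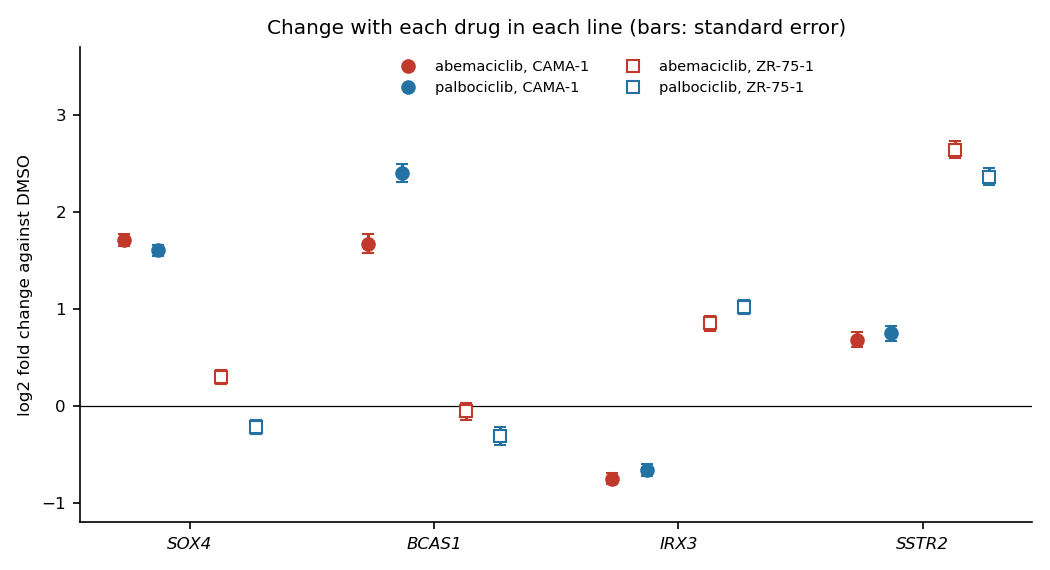
Log2 fold change against DMSO (vertical axis) of the 4 genes with abemaciclib (red) and palbociclib (blue) in CAMA-1 (filled circles) and ZR-75-1 (open squares). Whiskers are standard errors from the fit of each line. SOX4 and BCAS1 were at 1.60 to 2.40 in CAMA-1 and between -0.31 and 0.30 in ZR-75-1, while IRX3 lay below 0 in CAMA-1 and above 0 in ZR-75-1.

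When the log2 change of CAMA-1 was subtracted from that of ZR-75-1 in one fit of all 18 libraries, the abemaciclib values were -1.44 for SOX4 (SE 0.093), -1.75 for BCAS1 (SE 0.13), 1.58 for IRX3 (SE 0.096) and 1.94 for SSTR2 (SE 0.12). With palbociclib they were -1.85 (SE 0.094), -2.73 (SE 0.13), 1.65 (SE 0.095) and 1.59 (SE 0.12), in the same order of genes. SOX4 and BCAS1 therefore had the larger change in CAMA-1, and IRX3 and SSTR2 the higher value in ZR-75-1, for either drug. Of all genes tested, 18.2% were called as differing between the lines with abemaciclib and 20.3% with palbociclib, a background from which the 4 were taken.

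The direct comparison of abemaciclib with palbociclib at the same dose and time was not itself a criterion of the choice. Within a line it is the difference of the changes against DMSO described above, and the treated libraries entered the choice. Its p-values are therefore not independent of how the genes were chosen. Only 1 pair of compounds was compared, in each line, with p-values adjusted over all genes tested by the quasi-likelihood test of edgeR. In CAMA-1 the drugs differed for BCAS1 alone of the 4, and in ZR-75-1 for SOX4 and SSTR2. The background was 2.33% of genes called in CAMA-1 and 13.2% in ZR-75-1.

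BCAS1 was lower with abemaciclib than with palbociclib in CAMA-1, by a log2 difference of -0.73 (95% interval -0.89 to -0.56, adjusted p = 5.5e-08), or 1.65-fold higher with palbociclib. All 3 palbociclib libraries lay above all 3 abemaciclib libraries. In ZR-75-1 the value had the other sign, 0.26 (95% interval 0.073 to 0.44), and missed the threshold (adjusted p = 0.052). Other scalings brought it to an adjusted p of 0.040 and 0.028, whereas DESeq2 gave 0.11. The ZR-75-1 value minus the CAMA-1 value was 0.99 (SE 0.12) in the fit of all libraries. Over all genes 2.8% were called for this contrast, from which nothing is read about the 4.

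SOX4 was higher with abemaciclib than with palbociclib in ZR-75-1 by 0.51 on the log2 scale (95% interval 0.37 to 0.66, adjusted p = 1.8e-07), a 1.43-fold difference in which all 3 abemaciclib libraries exceeded all 3 palbociclib libraries. In CAMA-1, where SOX4 was higher with both drugs than with DMSO, the difference of 0.10 (95% interval -0.0084 to 0.22, adjusted p = 0.44) did not pass. The contrast between the lines was 0.41 (SE 0.092).

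For SSTR2 the abemaciclib level in ZR-75-1 exceeded the palbociclib level by 0.28 on the log2 scale (95% interval 0.13 to 0.43, adjusted p = 0.0076), or 1.21-fold, with no overlap of the libraries. Without palbociclib replicate 3, the lowest of its group, the difference was 0.22 and the adjusted p 0.074. CAMA-1 gave -0.07 (95% interval -0.22 to 0.086, adjusted p = 0.79), and the contrast between lines was 0.35 (SE 0.11).

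IRX3 gave no call between the drugs. Its log2 difference was -0.09 in CAMA-1 (95% interval -0.21 to 0.034, adjusted p = 0.59) and -0.17 in ZR-75-1 (95% interval -0.31 to -0.022, adjusted p = 0.13), and the contrast between lines was -0.08 (SE 0.094). The intervals reach as far as -0.21 in CAMA-1 and -0.31 in ZR-75-1.

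**Figure D3:**
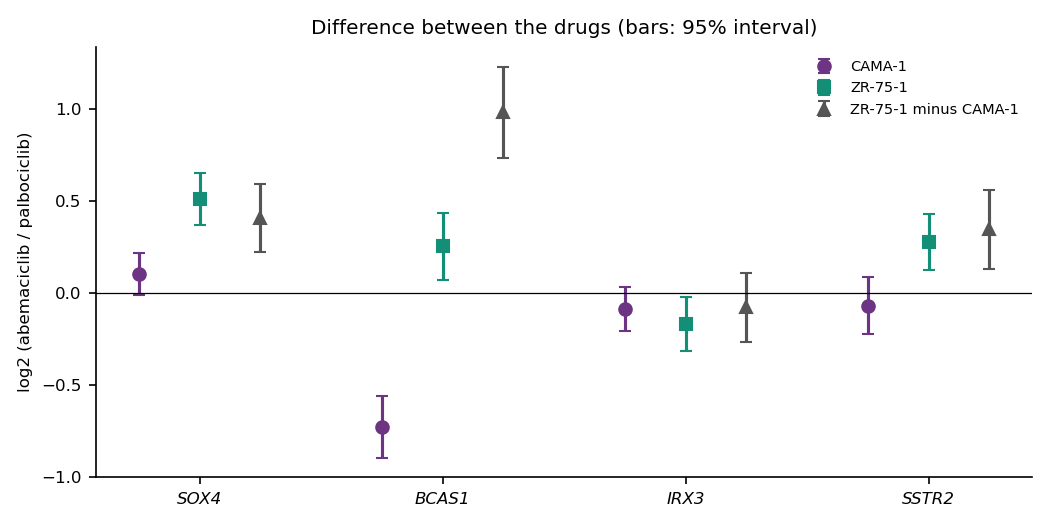
Log2 ratio of abemaciclib to palbociclib (vertical axis) for each gene in CAMA-1 (circles), in ZR-75-1 (squares) and as the contrast ZR-75-1 minus CAMA-1 (triangles), with 95% intervals. BCAS1 lay at -0.73 in CAMA-1 and 0.26 in ZR-75-1, and the IRX3 values lay between -0.17 and -0.08.

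The genes of dividing cells also differed between the drugs. RRM2, a subunit of ribonucleotide reductase, averaged 181 CPM in CAMA-1 with DMSO, 9.84 CPM with abemaciclib and 30.3 CPM with palbociclib, and in ZR-75-1 81.6, 1.21 and 41.7 CPM. MKI67, CCNA2, TOP2A and RRM2 were all at a lower level under abemaciclib than under palbociclib, in each line. The CCNA2 call in CAMA-1 failed without any of 3 libraries. The median log2 difference of these genes of dividing cells was -1.11 in CAMA-1 and -3.83 in ZR-75-1. The part of this difference in the drug contrasts of SOX4, BCAS1 and SSTR2 was not tested.

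Of the 18 other SOX genes, 5 were abundant enough to test in CAMA-1 and 7 in ZR-75-1. Over all genes of CAMA-1 20.3% rose and 20.1% fell under abemaciclib, and 18.4% and 18.7% under palbociclib. For ZR-75-1 the shares were 17.9% and 18.3%, and 14.5% and 13.4%. In CAMA-1, 1 rose and 2 fell with each drug: SOX9, a regulator of progenitor cells, rose from 18.7 CPM to 40.4 CPM with abemaciclib (log2 1.09, adjusted p = 2.7e-07) and 34.7 CPM with palbociclib (log2 0.87, adjusted p = 1.9e-05), and SOX12 and SOX11, the closest relatives of SOX4, fell. SOX12 went from 140 CPM to 110 and 108 CPM. In ZR-75-1, 1 rose and 2 fell with each drug, namely SOX2, a pluripotency factor, from 128 CPM to 191 and 167 CPM, SOX12 from 90.4 CPM to 54.8 and 56.2 CPM, and the weakly expressed SOX18. The SOX12 calls thus went the other way from SOX4 in CAMA-1. Median log2 changes of the tested SOX genes lay between -0.25 and 0.05, beside medians of -0.01 to 0.01 over all genes, and the 2 SOX18 calls each failed without 2 of the 9 libraries.

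The TGF-β list held 21 genes, of which 16 were tested in CAMA-1 and 15 in ZR-75-1. In CAMA-1, 6 rose and 2 fell with abemaciclib, and 4 rose and 2 fell with palbociclib, with median log2 changes of 0.44 and 0.32. Over all genes of that line 20.3% rose and 20.1% fell under abemaciclib, and 18.4% and 18.7% under palbociclib. ZR-75-1 gave 3 higher and 6 lower with abemaciclib and 1 higher and 5 lower with palbociclib, with medians of -0.06 and -0.27, where the shares over all genes were 17.9% and 18.3%, and 14.5% and 13.4%. SKIL, a corepressor that restrains SMAD proteins and is itself induced by TGF-β, rose in CAMA-1 from 20.1 CPM to 48.0 CPM with abemaciclib (log2 1.21, adjusted p = 9.6e-09) and 64.1 CPM with palbociclib (log2 1.62, adjusted p = 1.9e-12). In ZR-75-1 SKIL went from 23.2 CPM to 14.5 and 14.7 CPM (adjusted p = 0.013 and 0.019), calls that failed without any of 4 and of 3 libraries. Between the lines SKIL differed by -1.94 for abemaciclib (adjusted p = 6.5e-08) and by -2.32 for palbociclib (adjusted p = 1.5e-10), the same sign as for SOX4.

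TGFBR3, the co-receptor betaglycan, rose in ZR-75-1 from 2.99 CPM to 15.8 CPM with abemaciclib (log2 2.40, adjusted p = 1.2e-08) and 21.6 CPM with palbociclib (log2 2.85, adjusted p = 3.9e-11), and stood at 12.0, 11.8 and 9.38 CPM in CAMA-1 without a call. ID2, an inhibitor of basic helix-loop-helix factors, fell in all 4 comparisons, as did EZH2, a histone methyltransferase and an E2F target. ID3 rose in 3 of them. SMAD2, SMAD3 and SMAD4, the carriers of the TGF-β signal, gave 2 calls between them, both in ZR-75-1 and both lower, the SMAD2 call with palbociclib failing without DMSO replicate 1 or palbociclib replicate 1 and the SMAD4 call with abemaciclib without any of 5 libraries. The list, which does not include SOX4, thus held a gene that rose in one line and fell in the other with both drugs (SKIL). BAMBI was called higher in CAMA-1 with palbociclib and lower in ZR-75-1 with abemaciclib, the CAMA-1 call failing without DMSO replicate 3. The list also held genes that moved alike.

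Among the 5 other Iroquois genes, IRX2 and IRX5 were tested in both lines and IRX4 in CAMA-1 only. IRX5, the neighbour of IRX3 in its cluster, followed IRX3 in direction. It fell in CAMA-1 from 336 CPM to 279 CPM with abemaciclib (log2 -0.30, SE 0.075, adjusted p = 0.0013) and 254 CPM with palbociclib (log2 -0.44, SE 0.075, adjusted p = 8.0e-06), and rose in ZR-75-1 from 146 CPM to 210 CPM (log2 0.52, SE 0.081, adjusted p = 4.8e-07) and 190 CPM (log2 0.37, SE 0.080, adjusted p = 2.4e-04). The difference between lines was 0.79 (SE 0.11, adjusted p = 8.0e-08) with abemaciclib and 0.78 (SE 0.11, adjusted p = 9.1e-08) with palbociclib, less than the 1.58 and 1.65 of IRX3. IRX2 fell in CAMA-1 from 71.5 CPM to 57.1 and 52.5 CPM (adjusted p = 0.018 and 0.0016), and its values in ZR-75-1 were 76.1, 82.8 and 62.8 CPM without a call against DMSO. The abemaciclib call of IRX2 in CAMA-1 failed without any of 3 libraries.

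The somatostatin list held 28 genes beside SSTR2, and 15 were tested in each line. None of the other somatostatin receptors nor the ligand genes SST and CORT was abundant enough to test, so SSTR2 was the one receptor of the family measured above the filter. With abemaciclib 1 rose and 5 fell in CAMA-1 and 1 rose and 4 fell in ZR-75-1, and with palbociclib 3 rose and 2 fell in CAMA-1 and 2 rose and 1 fell in ZR-75-1. ADCY1, an adenylyl cyclase and so an enzyme that the receptor restrains, rose in ZR-75-1 from 31.8 CPM to 112 CPM with abemaciclib (log2 1.81, adjusted p = 1.8e-17) and 123 CPM with palbociclib (log2 1.96, adjusted p = 9.8e-19). In CAMA-1 it stood at 8.23, 11.5 and 16.3 CPM, with a call for palbociclib only (log2 0.94, adjusted p = 0.0030). ADCY1 differed between lines by 1.36 (adjusted p = 3.2e-04) and 0.99 (adjusted p = 0.0057), the sign of SSTR2. ARRB2, a β-arrestin that takes activated receptors out of signalling, fell with both drugs in CAMA-1 from 49.7 CPM to 27.3 and 29.7 CPM. It was also called lower with abemaciclib in ZR-75-1, a call that failed without abemaciclib replicate 2. GNAZ, an inhibitory G protein subunit, started from 12.1 CPM or less and fell in CAMA-1 under either drug, and in ZR-75-1 under abemaciclib, a call that failed without DMSO replicate 2.

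BCAS2, BCAS3 and BCAS4 share a naming history with BCAS1 and no sequence family. BCAS4 rose in ZR-75-1 from 23.0 CPM to 39.5 CPM with abemaciclib (log2 0.77, adjusted p = 6.8e-05) and 43.9 CPM with palbociclib (log2 0.93, adjusted p = 2.4e-06), the line in which BCAS1 was not higher with drug. BCAS2 had a single call, lower with abemaciclib in CAMA-1 (adjusted p = 0.029), which failed without any of 3 libraries. BCAS3 had none.

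**Figure D4:**
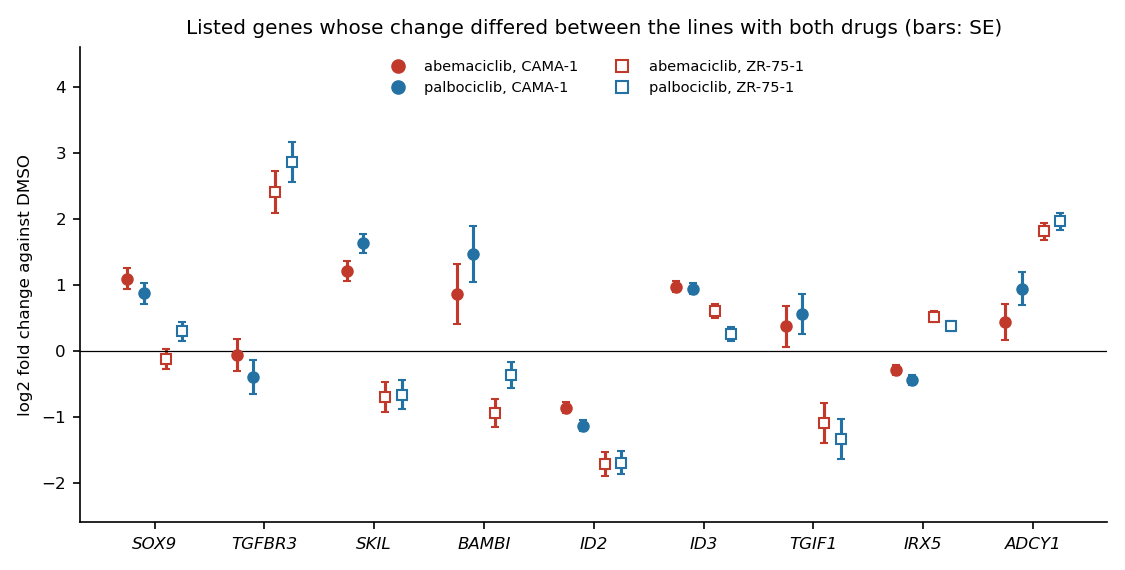
Log2 fold change against DMSO, with standard errors, for the 9 genes of the SOX, TGF-β, Iroquois, somatostatin and BCAS lists whose change differed between the lines with both drugs and that were tested in both lines. Colours give the drug and filled or open symbols the line. IRX5 lay below 0 in CAMA-1 and above 0 in ZR-75-1, SKIL the other way round, and ADCY1 reached 1.81 and 1.96 in ZR-75-1. The line-difference calls of ID3 with abemaciclib and SOX9 with palbociclib each failed in 12 of 18 fits that left out 1 library.

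Around the 4 loci, 18 other protein-coding genes start within 1 Mb of a member's start. The neighbours of SOX4, PRL and HDGFL1, had no count. BCAS1 has 2 tested neighbours. ZNF217, a zinc-finger oncogene of the same amplified region whose start lies 461 kb downstream, rose in CAMA-1 with abemaciclib (log2 0.78, SE 0.090, adjusted p = 1.8e-09) and palbociclib (log2 0.84, SE 0.089, adjusted p = 2.3e-10). Its ZR-75-1 values were 0.14 and 0.04, and its difference between lines was -0.66 (adjusted p = 9.7e-04) and -0.83 (adjusted p = 2.4e-05), the sign of BCAS1. PFDN4, a chaperone subunit nearer to BCAS1, fell in all 4 comparisons.

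Of the 5 neighbours of IRX3, all tested, IRX5 was described above and lies at -644 kb, where a negative distance is upstream on the strand of the member. RBL2, a relative of the retinoblastoma protein, rose in CAMA-1 with abemaciclib (log2 0.58) and palbociclib (log2 0.39). FTO, whose start is between those of RBL2 and IRX3, had log2 values of 0.02 and -0.07 in CAMA-1 and of 0.18 and 0.16 in ZR-75-1, none called. Of the 7 neighbours of SSTR2, 5 were tested. SLC39A11, a zinc transporter, rose in ZR-75-1 with abemaciclib (log2 0.38, adjusted p = 1.9e-05) and palbociclib (log2 0.44, adjusted p = 1.3e-06), far less than SSTR2, and CDC42EP4 fell in all 4 comparisons. COG1 rose with palbociclib and C17orf80 fell with both drugs in CAMA-1.

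To describe which genes moved most like each of the 4, log2 CPM was taken relative to the DMSO mean of each line and correlated over the 18 libraries with 10860 genes. The 18 libraries share lines, drugs and controls, so the coefficients are descriptive. SOX4 was closest to MEX3A (r = 0.987), ADD3 (r = 0.986) and EDN1 (r = 0.982). EDN1, which encodes endothelin-1, averaged 17.5, 94.0 and 80.6 CPM in CAMA-1 with DMSO, abemaciclib and palbociclib, and 17.7, 25.6 and 16.6 CPM in ZR-75-1. BCAS1 was closest to DST (r = 0.976), AQP3 (r = 0.976) and LTB (r = 0.974). AQP3, a water and glycerol channel, averaged 8.14, 76.3 and 120 CPM in CAMA-1 and at most 0.524 CPM in any ZR-75-1 group, so its likeness to BCAS1 comes from CAMA-1.

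IRX3 was closest to SLC6A6 (r = 0.981) and PIGT (r = 0.981). PIGT, a subunit of the complex that attaches GPI anchors to proteins, averaged 249, 195 and 204 CPM in CAMA-1 with DMSO, abemaciclib and palbociclib, and 207, 284 and 276 CPM in ZR-75-1. The closest to SSTR2 were SSR4 (r = 0.983), IGFBP5 (r = 0.979) and ORMDL3 (r = 0.979), of which IGFBP5, a secreted binder of insulin-like growth factors, averaged 3898, 4988 and 6278 CPM in CAMA-1 and 1344, 3694 and 3334 CPM in ZR-75-1. Among the 4 themselves, SOX4 and BCAS1 moved together (r = 0.954), IRX3 and SSTR2 less closely (r = 0.737), and IRX3 ran against SOX4 (r = -0.793) and BCAS1 (r = -0.822). SSTR2 had weaker coefficients with SOX4 (r = -0.183) and BCAS1 (r = -0.278).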

How the data were processed

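Gene counts of 3′ mRNA libraries (QuantSeq) from 18 cultures were used as the authors deposited them. According to the study's methods, reads were trimmed with BBDuk, aligned to hg38 with STAR 2.7.5b and counted with featureCounts 2.0.1 against GENCODE. The labels name the reverse kit and the methods the forward kit, which differ in strand, so the counting strand is uncertain. The values are whole read counts, neither normalized nor collapsed by molecular identifier, and the study used DESeq2.

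Counts were analysed with edgeR 4.0.16 in R 4.3.3: TMM scaling, filterByExpr, quasi-likelihood tests and Benjamini-Hochberg adjustment over all genes tested at 0.05. Each line was fitted on its 9 libraries (11053 genes for CAMA-1, 11017 for ZR-75-1), and differences between lines came from one fit of 18 libraries (11987 genes). The biological coefficient of variation was 8.12%, 8.30% and 8.26% in the 3 fits. CPM was scaled over all 18 libraries. The fits were tested on simulated data. Intervals are at 95%.

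The 4 genes and the gene lists were chosen with earlier results of these data known. Named besides them are the 3 genes with the highest Pearson r to each among those averaging 10 counts or more, the called protein-coding neighbours within 1 Mb, and the called or most abundant genes of the lists. One gene that this rule names is not reported here. The study states 3 independent biological replicates. Same-numbered samples did not deviate together (r between -0.086 and 0.058 over 5911 genes), so the numbers do not pair samples. Alternatives were RLE and upper-quartile scaling, no filter, DESeq2 1.42.0, a replicate block, leaving out mitochondrially encoded genes, and leaving out each library. Of 60656 identifiers, 60445 matched the name table. RefSeq promoters were matched by symbol for 2 of the 4 genes. Depth, from 2308442 to 4146549 counts, limits precision for genes of few counts.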

Additional observations from a re-analysis of the deposited data

Results flagged for a closer look

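The difference between abemaciclib and palbociclib on the log2 scale is given here as ZR-75-1 minus CAMA-1. It was 0.41 for SOX4 (SE 0.092), 0.99 for BCAS1 (SE 0.12), 0.35 for SSTR2 (SE 0.11) and -0.08 for IRX3 (SE 0.094). These are differences of the values by which the genes were chosen and are given without a test. In a further 4 cases every treated library of one line lay above every DMSO library of that line. In the other line every treated library lay below every DMSO library. The line difference was not tested because the genes were chosen by it. These cases were SOX4 with palbociclib (-1.85), BCAS1 with palbociclib (-2.73), and IRX3 with abemaciclib (1.58) and palbociclib (1.65). The SOX4 case rests on a thin margin in ZR-75-1, where the highest palbociclib library had 496.3 CPM and the lowest DMSO library 497.4 CPM. The share of all genes that meet the same rule was not counted, so nothing is read from the number of cases.

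Genes of the lists also differed between the lines by the test of the difference. In the SOX family, SOX2 gave 1.90 with abemaciclib and 3.19 with palbociclib, but it had at most 11 counts in any CAMA-1 library, so these fitted values depend on the prior count. SOX9 gave -1.24 and -0.61, and SOX18 -2.24 with palbociclib. In the TGF-β list TGFBR3 gave 2.44 and 3.23, SKIL -1.94 and -2.32, BAMBI -1.85 and -1.88, ID2 -0.88 and -0.59, ID3 -0.39 and -0.72, and TGIF1 -1.49 and -1.91, the abemaciclib value first in each case. EZH2 gave -0.78 with abemaciclib and -1.02 for the drug-to-drug difference, and ID1 0.74 for the latter. In the Iroquois and somatostatin lists IRX5 gave 0.79 and 0.78, ADCY1 1.36 and 0.99, GRK2 0.60 with abemaciclib and PTPN11 -0.44 with palbociclib. BCAS4 gave 0.65 with palbociclib. Some of these calls failed when 1 of the 18 libraries was left out. With abemaciclib they were ID3 (failing in 12 of the 18 fits), GRK2 (in 6) and SOX2 (in 2). With palbociclib they were SOX9 (in 12), PTPN11 (in 9), SOX18 (in 3) and BCAS4 (in 1). The drug-to-drug difference of ID1 failed in 1 fit.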

How the results depend on the processing

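No value reversed. Under the other scalings, no filter, DESeq2, the replicate block and removal of mitochondrially encoded genes, 212 of the values of the 4 genes kept their direction and, where tested, their call. The 4 exceptions kept their direction. The drug-to-drug difference of BCAS1 in ZR-75-1 passed with RLE scaling (0.27) and upper-quartile scaling (0.28). The SSTR2 contrast of the drug-to-drug difference between lines was 0.37 with upper-quartile scaling and 0.36 with DESeq2. It counts as an exception only because it crossed the threshold on the adjusted p in those fits, from which nothing is read. DESeq2 called 902 genes between the drugs in ZR-75-1 where edgeR called 1451. The cause was not tested. The replicate block changed no call of the 4 genes, for example 0.25 with the replicate block for BCAS1 between the drugs in ZR-75-1 (adjusted p = 0.058).

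Leaving out 1 library at a time gave 151 to 379 genes called between the drugs in CAMA-1 against 257, the 2 lowest being 154 without abemaciclib replicate 3 and 151 without palbociclib replicate 1. The SSTR2 drug-to-drug difference ranged from 0.22 to 0.35 in ZR-75-1 and from 0.30 to 0.41 between lines, and that of BCAS1 in ZR-75-1 from 0.20 to 0.29. The line difference with abemaciclib ranged from -1.47 to -1.35 for SOX4, 1.54 to 1.67 for IRX3 and 1.92 to 2.03 for SSTR2. With palbociclib it ranged from -1.92 to -1.72 for SOX4, 1.60 to 1.73 for IRX3, 1.52 to 1.69 for SSTR2 and -2.77 to -2.65 for BCAS1.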
